A study of Mus musculus with 10 samples.

Results

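The Trim genes encode tripartite motif proteins, and 36 of the 10767 genes in the deposited expression table carry a symbol made of Trim and a number. They were chosen by symbol alone, without regard to their values. The measurements are messenger RNA levels in CD8+ dendritic cells (DCs) of the spleen from untreated mice, sorted as live MHCII+CD11c+CD11b-CD8+ cells. There were 5 Ppef2+/+ and 5 Ppef2-/- libraries, numbered by sort 1 to 5 with both genotypes in each sort, and each library held the cells of 3 pooled young adult mice matched for age and sex. Ppef2, a phosphatase gene, was disrupted in all cells of the Ppef2-/- mice by a trap inserted before exon 5, which is flanked by loxP sites, on a C57BL/6 background from JM8A3.N1 embryonic stem cells. The comparison asks whether loss of Ppef2 changed the Trim genes of these cells, among them Trim2. The study singled it out from its list of changed genes in these same libraries, for what is known of Trim2 binding to Bim. The paper also reported lower Trim2 mRNA by quantitative PCR of sorted spleen CD8+ DCs. In DCs cultured from bone marrow, it reported no significant difference in Trim2 protein.

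A tripartite motif protein starts with a RING finger, 1 or more B-box zinc fingers and a coiled coil, and most members act as ubiquitin ligases through the RING. The C-terminal part differs and defines classes. PRY-SPRY proteins include many antiviral factors induced by interferon, proteins with a plant homeodomain (PHD) finger and a bromodomain act on chromatin, and NHL proteins carry a beta-propeller. Trim2 belongs to the NHL class, is best known from neurons, and has been described to ubiquitinate neurofilament light chain and the pro-apoptotic protein Bim.

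The gene lists and classes used below are textbook lists. Of the 36 Trim genes, 22 belonged to the PRY-SPRY class and 14 to a list of interferon-inducible members. The annotation of the mouse genome (GENCODE M21, build GRCm38, which is mm10) holds 69 genes with such a symbol, so 33 others were not analysed here. In that annotation 9 of the 36 lie side by side on chr7:104218793-104507849, and all 9 are PRY-SPRY genes of the interferon list: Trim6, Trim34a, Trim5, Trim12a, Trim34b, Trim12c, Trim30b, Trim30a and Trim30d. Trim2 lies on the minus strand of chr3:84160439-84306877, and 0.0702% of the 50-base words in its exons occurred in the exons of another gene.

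Promoter sequences were searched for a motif in this cluster and in the other Trim genes. The motif GAAA, any 2 bases, GAAA, the core of the interferon-stimulated response element, was searched on both strands of RefSeq promoter windows (GRCm38.p6) that ran from 250 bases before to 50 bases after a start site. It occurred in 3.44% of all 32851 windows, and in 8 of the 13 genes of the interferon list with a window (Trim5, Trim12a, Trim12c, Trim21, Trim26, Trim30a, Trim30d and Trim34a). Among the 15 other Trim genes with a window it occurred in 1, Trim2, at 28 bases after the start in 1 of its 5 windows. Trim6, Trim34b and Trim30b of the cluster had no match, and Trim21 and Trim26 lie outside it. The share over all is one of windows, while the Trim counts are of genes. The stretches below are the matches that lie before the start, 30 bases each, 5′ to 3′ on the strand of the gene, with the motif in capitals as it reads on that strand.
Trim5, chr7:104288136-104288165, minus strand: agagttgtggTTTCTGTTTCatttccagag
Trim12c, chr7:104353359-104353388, minus strand: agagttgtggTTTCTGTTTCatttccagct
Trim30a, chr7:104465210-104465239, minus strand: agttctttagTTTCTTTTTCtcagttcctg
Trim30d, chr7:104507871-104507900, minus strand: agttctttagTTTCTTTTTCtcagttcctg
Trim26, chr17:36836979-36837008, plus strand: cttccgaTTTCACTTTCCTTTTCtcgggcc
The Trim30a and Trim30d stretches were identical in 30 of 30 bases, and those of Trim5 and Trim12c in 28 of 30. Between these pairs, 14 or 15 of 30 bases were identical. Trim26 held 2 overlapping matches. These are matches of letters only, and binding was not measured.

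The values are normalised counts. The deposited table had the mean of each sort removed, so the whole reads behind it were calculated back, and they were found for 33 of the 36 Trim genes. Levels below are these reads on the normalised scale, with the sort means put back. Trim28, Trim30a and Trim35, all with values of 1000 or more, are given as deposited, which leaves out the spread between sorts. The libraries held between 1369893 and 4324876 reads in the genes whose reads were found, and the Ppef2-/- library had 2.92 times the reads of its Ppef2+/+ partner in sort 1 and 0.73 times in sort 5. Ppef2 itself had 197 ± 66.4 normalised counts (SD, n = 5) in Ppef2+/+ and 2.33 ± 1.88 in Ppef2-/- (limma, adjusted p = 0.000121), in accord with the labels. All 12 cDC1 marker genes looked up were in the table, while of the markers of B cells, T cells and neutrophils 2 of 9, 2 of 8 and 2 of 7 were. In Ppef2+/+ these B cell, T cell and neutrophil markers had 142 (Ms4a1) and 27.8 (Cd79b), 205 (Cd4) and 38.5 (Cd5), and 13.75 (S100a9) and 8.58 (Csf3r) normalised counts. Of the cDC2 markers 7 of 8 were in the table, from 11.98 (Clec4a4) to 482 (Irf4). Macrophage and monocyte markers had 10 of 12, from 24.6 (C1qc) to 474 (Hmox1). Plasmacytoid DC markers had 7 of 7, from 13.2 (Klk1) to 423 (Tcf4). Erythroid markers had 5 of 8, from 12.65 (Hbb-bt) to 71.2 (Hba-a1). Pax5, Cd3e and Ly6g were not among the genes of the table.

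Of the 36 Trim genes in the table, Trim30a stood highest in Ppef2+/+ CD8+ DCs and Trim2 lowest. Between genes, levels were compared per kilobase of merged exons. Trim30a, a negative regulator of Toll-like receptor signalling, was at 431 normalised counts per kb and Trim2 at 0.546, a ratio of 789. The size of this ratio depends on the length used. With the longest transcript as length the values were 470 and 1.45, which lie closer together. The 36 members filled the range between them, with a median of 45.4 per kb beside 37.8 for all genes with a known length. By normalised count without division by length, 23 of the 36 were above the median of all genes (169).

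The 5 highest Trim genes per kb came from several classes. After Trim30a came Trim28, the corepressor that KRAB zinc finger proteins recruit, at 295 normalised counts per kb. Trim35, a PRY-SPRY protein, followed at 231. Trim41, a PRY-SPRY protein known to bind protein kinase C, was at 161. Trim44, which has no RING finger, was at 155. In the values given, the order of the first 4 held in each of the 5 Ppef2+/+ libraries, but the ranges of Trim30a, Trim28 and Trim35 lack the spread between sorts, so their lack of overlap is partly fixed by the processing. Trim41 exceeded Trim44 in only 3 of 5, so these neighbours did not differ beyond the spread.

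**Figure D1:**
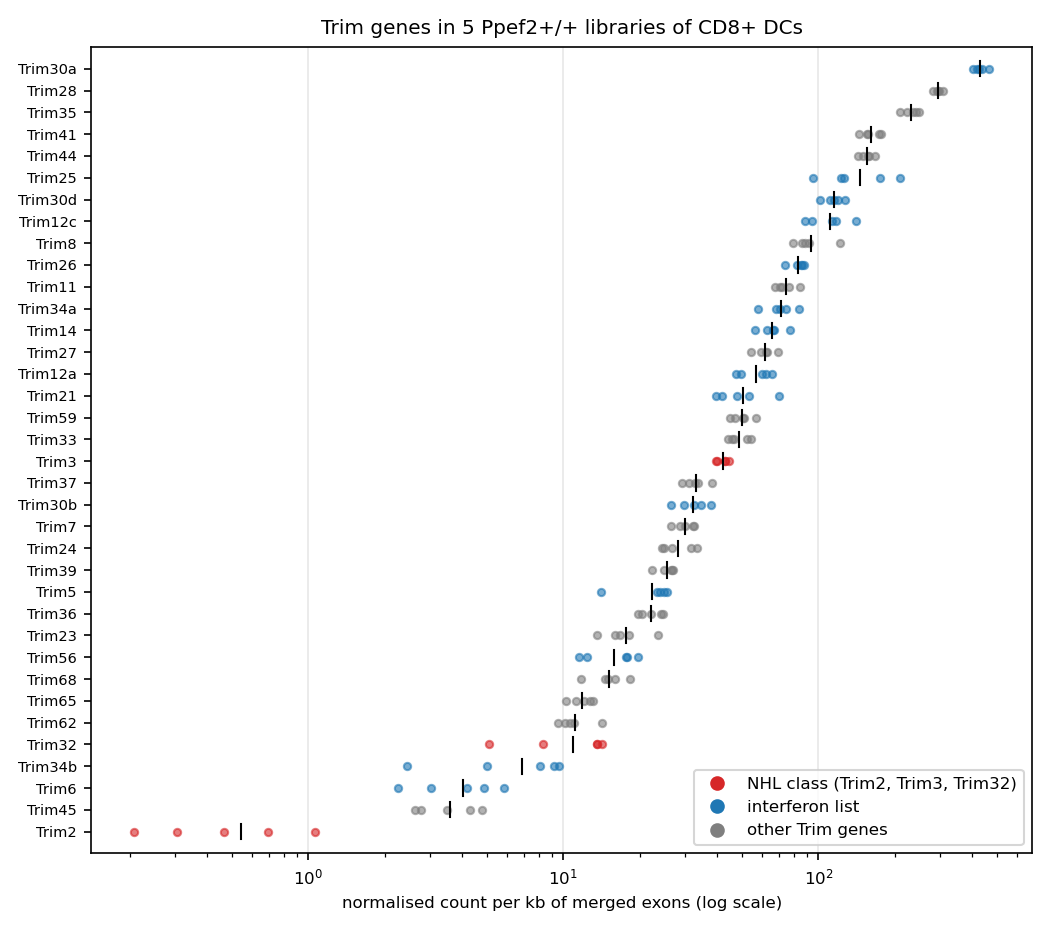
Level of each of the 36 Trim genes in the 5 Ppef2+/+ libraries (points) with their mean (black bar), as normalised counts per kb of merged exons on a log axis. Trim30a is highest at a mean of 431 and Trim2 lowest at 0.546. Points of Trim30a, Trim28 and Trim35 are deposited values without the spread between sorts.

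In the middle of this order neighbours could seldom be told apart. Of the 35 pairs of neighbours, 8 kept their order in all 5 libraries and 5 had ranges that did not overlap, 3 of these among the first 4 genes. One of these breaks separated Trim3, at 42.2 per kb, from Trim37, at 33.01. Genes of the interferon list were found at both ends, from 4.03 per kb (Trim6) to 431 (Trim30a), with a median of 61.6 for the 14 and 31.5 for the 22 others. The 9 clustered genes together made up 28.2% of the summed normalised counts of the family, and Trim2 0.087%.

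The 5 lowest were Trim32, Trim34b, Trim6, Trim45 and Trim2. Trim32, a ligase of the NHL class known from muscle, was at 10.9 normalised counts per kb. Trim34b, at 6.86, shares 56.8% of its 50-base words with Trim34a, so its reads could be divided between the 2 genes by the counting. Trim6, a maker of unanchored ubiquitin chains, was at 4.03. Trim45, which carries a filamin domain and was the nearest neighbour above Trim2, was at 3.59, and it exceeded Trim6 in 2 of 5 libraries.

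Per kb, Trim2 was last among its relatives in each of the 5 Ppef2+/+ libraries. Its values there were 0.693, 0.207, 0.304, 0.468 and 1.06 normalised counts per kb in sorts 1 to 5, while Trim45 ranged from 2.62 to 4.79. The ranges per kb did not overlap, and none of the other 35 stood below Trim2 on this scale. The table kept only genes whose larger genotype mean reached 10, so the 33 Trim genes outside it are not placed in this order. With the longest transcript as length in place of all merged exons, Trim2 was at 1.45 per kb and was again the 36th of 36. Without division by length, Trim2 had the lowest mean but was not last in every library. Trim6 was lower in sort 1 (10.95 normalised counts beside 13.7). Trim34b was lower in sort 3 (4.51 beside 6.01) and in sort 5 (16.9 beside 20.9). In sort 4 Trim34b equalled Trim2 at 9.24, and in sort 5 Trim45 equalled it at 20.9.

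Within the NHL class, the order was Trim3, Trim32 and Trim2. Trim3, a brain-enriched ligase, had 193 ± 9.99 normalised counts (SD, n = 5), Trim32 had 35.3 ± 13.0 and Trim2 had 10.8 ± 6.73. The fourth NHL gene of the list, Trim71, was not among the genes of the table. Of all 10767 genes, 206 had a lower normalised count in Ppef2+/+ than Trim2, which put it at percentile 1.91. Without sort 5 the percentile was 0.9752. Trim2 was close to the limit of 10 that a genotype mean had to reach to be kept.

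The number of reads behind Trim2 was small. Its Ppef2+/+ libraries of sorts 1 to 5 held 10, 3, 4, 10 and 21 reads, and its Ppef2-/- libraries 17, 5, 5, 2 and 3. That is 48 and 32 reads in all. On the normalised scale these reads came to 13.7, 4.09, 6.01, 9.24 and 20.9 in Ppef2+/+ and to 7.90, 2.95, 4.68, 2.11 and 4.11 in Ppef2-/-. Each Ppef2-/- library was below its partner from the same sort, but the ranges of the genotypes overlapped, since the highest Ppef2-/- value (sort 1) was above those of Ppef2+/+ sorts 2 and 3.

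Trim2 was 0.403-fold of its Ppef2+/+ mean in Ppef2-/- cells, at 4.35 ± 2.22 against 10.8 ± 6.73 normalised counts (SD, n = 5). The differences, Ppef2-/- minus Ppef2+/+, were -5.79, -1.14, -1.33, -7.13 and -16.8 normalised counts in sorts 1 to 5. Sort 5 alone held the largest part of the summed difference. Trim2 was the only 1 of the 36 Trim genes that was lower in all 5 sorts, a share of 2.78%, where 2.92% of all genes were. The exact exchange of genotypes within sorts gave p = 0.0625 (two-sided), the smallest that 32 exchanges allow. In bulk samples, fewer cells that express a gene and less of its RNA per cell cannot be told apart.

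In limma with sort as a block, Trim2 had a log2 fold change of -1.16 (SE 0.48, 95% interval -2.17 to -0.15). Trim2 and Trim34b passed the limit of 10 through Ppef2+/+ alone, and a gene kept in that way had to be lower in Ppef2-/-, so the direction of these 2 is no result. The unadjusted p was 0.0263, and adjusted over all genes by Benjamini-Hochberg it was 0.995. Since the study also picked Trim2 from genes with a change in these libraries, these values describe that choice and do not test it. Without sort 5 the log2 fold change was -0.68 and the unadjusted limma p was 0.175. Without sort 4 the fold change was -1.13 with an unadjusted limma p of 0.0556.

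The spread between the sorts of Trim2 was about as wide as read counting alone gives. Its ratios of Ppef2-/- to Ppef2+/+ were 0.577 in sort 1, 0.722 in sort 2, 0.779 in sort 3, 0.229 in sort 4 and 0.196 in sort 5. Exact 95% intervals, which cover counting error only, ran from 0.249 to 1.41, 0.141 to 4.65, 0.168 to 3.93, 0.0244 to 1.07 and 0.0375 to 0.658. They held 1 in 4 of the 5 sorts, all but sort 5. The SD of the log2 ratios over sorts was 0.946, and read counting alone gives 0.940. The 2 sorts with the lowest ratios, 4 and 5, were also those in which the Ppef2-/- library was shallower than its partner (0.885 and 0.73 times the reads), and the part of depth in the result was not tested.

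**Figure D2:**
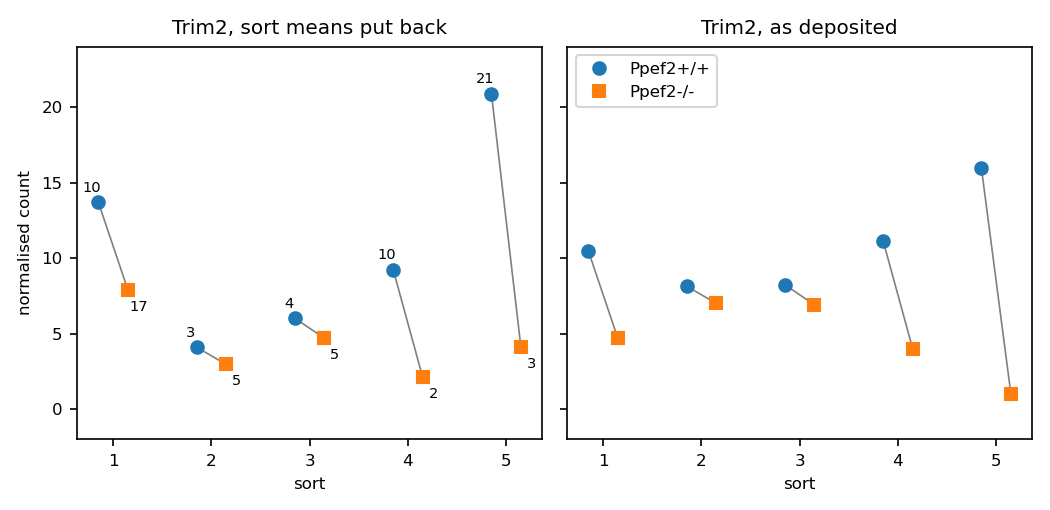
Trim2 in normalised counts by sort, with the sort means put back (left, number of reads printed beside each point) and as deposited (right), with a grey line joining the 2 libraries of a sort. Every Ppef2-/- point lies below its Ppef2+/+ partner, and the left panel shows the overlap of the genotypes that the deposited values do not have.

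The deposited values of Trim2 differ from this picture. They were 10.5, 8.14, 8.23, 11.1 and 15.97 in Ppef2+/+ and 4.67, 7.002, 6.91, 4.01 and 1.00 in Ppef2-/-, where 1.00 is the floor that the authors set. Here the genotypes do not overlap. After the mean of each sort is removed, this holds for any gene that differs in the same direction in every sort. With the sort means put back, 0 of the 36 Trim genes and 0.543% of the 9583 genes with recovered reads had genotype ranges that did not overlap.

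No Trim gene passed the test between the genotypes. In limma with sort as a block, 0 of 36 had an adjusted p under 0.05, as did 0.00929% of all genes (1 gene), and Trim2 alone had an unadjusted p under 0.05. That is 2.78% of the members beside 4.29% of all genes. Without the block, a fit that counts the removed sort means as information, 0 of 36 had an adjusted p under 0.05 (0.957% of all genes) and 5 an unadjusted one, Trim2, Trim7, Trim30b, Trim34b and Trim68 (13.9% beside 17.5% of all genes).

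Most Trim genes were measured well enough to bound a difference. For 24 of the 36, the 95% interval of the log2 fold change lay within ±0.3, and 32 had a fold change of less than 0.2 in size. The fold change was below 0 in 24 of 36 Trim genes (66.7%) and in 49.5% of all genes, with a median of -0.024 beside 0.00089 for all genes. This count ranged from 18 to 25 over the alternatives. The 24 include Trim2 and Trim34b, whose direction is no result. None of the 36 was higher in all 5 sorts, compared with 3.26% of all genes.

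**Figure D3:**
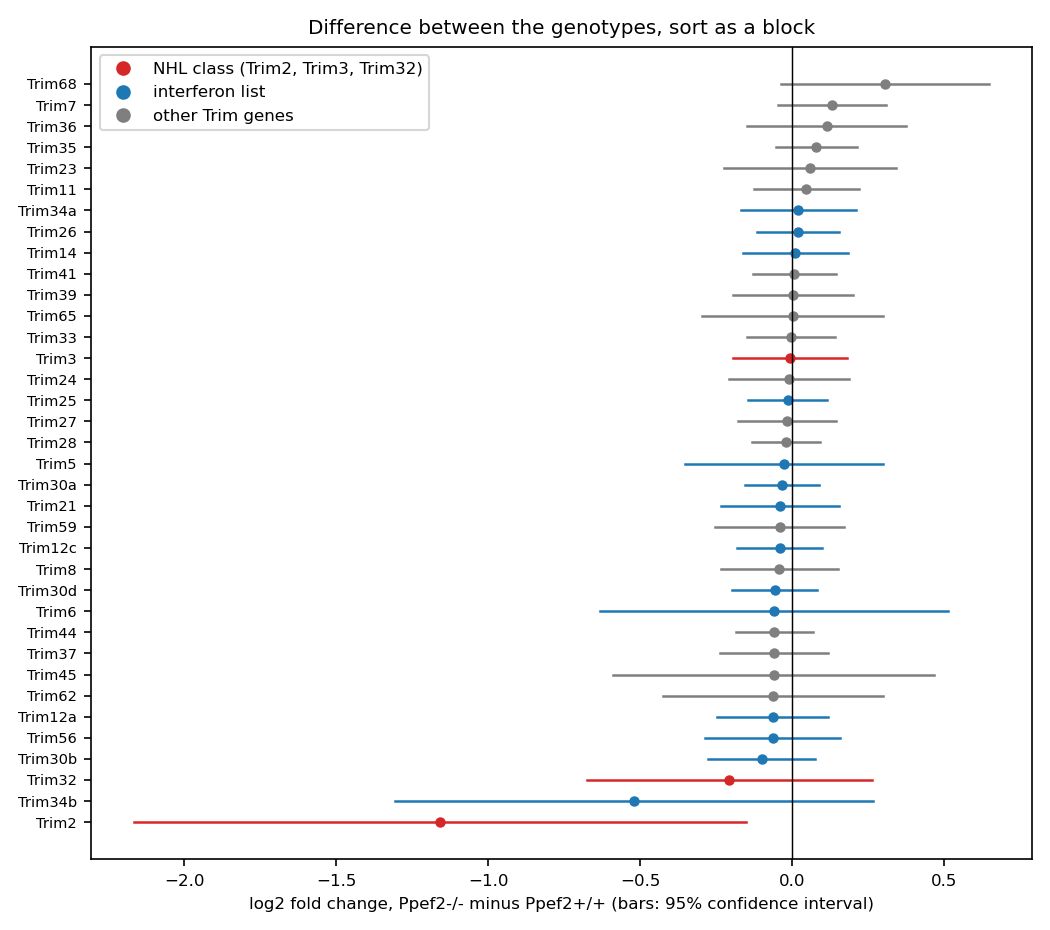
Log2 fold change, Ppef2-/- minus Ppef2+/+, of the 36 Trim genes from limma with sort as a block, with 95% confidence intervals and colours by group. All intervals but that of Trim2 (-2.17 to -0.15) hold 0, and those of the genes with few reads (Trim2, Trim34b, Trim6, Trim45, Trim32) are the widest.

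After Trim2, the largest fold changes below 0 were those of Trim34b and Trim32. Trim34b had 17.8, 14.996, 4.51, 9.24 and 16.9 normalised counts in Ppef2+/+ and 8.82, 8.27, 6.56, 11.6 and 8.22 in Ppef2-/-. It was lower in 3 sorts and higher in sorts 3 and 4, with a log2 fold change of -0.52 (SE 0.38, limma adjusted p = 0.995). Trim32 had 43.8, 43.6, 16.5, 26.8 and 45.8 in Ppef2+/+ and 34.4, 27.2, 29.98, 25.4 and 35.6 in Ppef2-/-. It was higher in sort 3 and lower in the other sorts, with a log2 fold change of -0.21 (SE 0.22). Trim3, the third NHL gene, differed by -0.0069 (SE 0.090) with a 95% interval from -0.20 to 0.18.

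The largest fold changes above 0 were those of Trim68, Trim7 and Trim36. Trim68, described as a coactivator of the androgen receptor, had 52.0, 50.4, 55.6, 40.7 and 63.7 normalised counts in Ppef2+/+ and 68.7, 78.0, 59.0, 59.2 and 60.3 in Ppef2-/-. It was higher in 4 of 5 sorts, with a log2 fold change of 0.31 (SE 0.16, 95% interval -0.035 to 0.65). Its limma p was 0.0762 unadjusted and 0.995 adjusted. Trim7, named for its binding to glycogenin, had a log2 fold change of 0.13 (SE 0.085) and was higher in 4 sorts. Trim36, a microtubule-associated member, had 0.11 (SE 0.13).

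The highest Trim genes had narrow intervals around 0. Trim30a had 1771 normalised counts in Ppef2+/+ and 1729 in Ppef2-/-, a log2 fold change of -0.035 with a 95% interval from -0.16 to 0.087. Trim28 had 1225 and 1208, with an interval from -0.13 to 0.092. Trim35 had 1068 and 1129, with an interval from -0.053 to 0.21. All 3 PHD and bromodomain genes in the table (Trim24, Trim28 and Trim33) had a fold change below 0, at a median of -0.011, and 0 of 3 passed. Of the 22 PRY-SPRY genes, 12 were below 0 and 10 above, at a median of -0.016. In the interferon list 11 of 14 were below 0, at a median of -0.041, and 0 had an unadjusted limma p under 0.05. Trim34b, whose direction is no result, is among these 11 and among the 12. Over all genes, 49.5% were below 0 and 4.29% had such a limma p.

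The spread of the within-sort ratios over read counting was modest in the family. The SD over sorts of the log2 ratio, divided by the SD that counting gives, had a median of 1.21 over the 33 Trim genes with recovered reads. It was above 2 for Trim8, Trim12a, Trim25 and Trim5, and 1.01 for Trim2. Trim8, a regulator of cytokine signalling, had ratios that reached from -0.33 to 0.45 on the log2 scale, with Ppef2-/- above Ppef2+/+ in sort 3 alone.

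**Figure D4:**
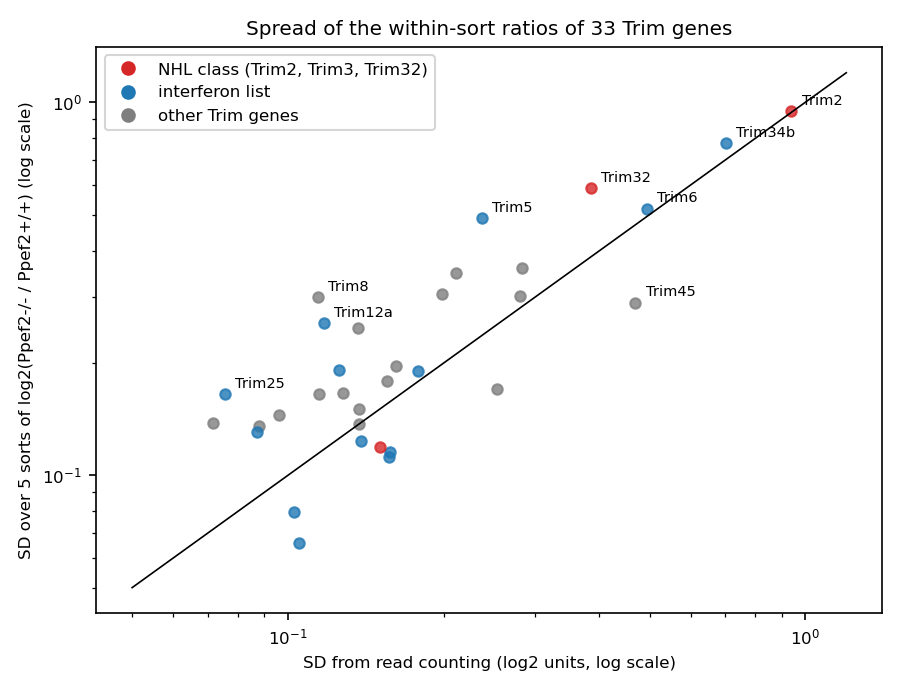
SD over the 5 sorts of the log2 ratio of Ppef2-/- to Ppef2+/+ against the SD that read counting gives, for the 33 Trim genes with recovered reads, both axes on a log scale in log2 units. The line marks equal values. Trim2 is at the upper right on the line, at 0.946 against 0.940, and Trim8 lies farthest above the line in proportion.

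Several interferon-list genes differed between sorts, and so did Trim genes outside the list. Trim8, outside it, differed 1.49-fold between the highest and the lowest sort mean. Trim25, the ligase that activates the RNA sensor RIG-I, had 550, 709, 1009, 1199 and 726 normalised counts in Ppef2+/+ and 617, 654, 964, 1298 and 618 in Ppef2-/-. It was highest in sort 4 and next highest in sort 3 in both genotypes. The mean of both libraries differed 2.14-fold between the highest and the lowest sort, more than in 98.1% of the 5675 genes with recovered reads and a mean of at least 100, where the median was 1.21-fold. The 24 Trim genes among these 5675 had a median of 1.26-fold. The log2 fold change of Trim25 between the genotypes was -0.015 with a 95% interval from -0.14 to 0.12.

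Trim21, the cytosolic antibody receptor, went the other way over the sorts. It had 261, 179, 147, 156 and 198 normalised counts in Ppef2+/+ and 227, 193, 147, 149 and 200 in Ppef2-/-, lowest in sort 3 in both genotypes. Trim12c had 527, 440, 353, 332 and 422 in Ppef2+/+ and 484, 434, 363, 335 and 400 in Ppef2-/-, lowest in sort 4 in both. Trim5, a retroviral restriction factor, Trim34a and Trim56 are plotted with them. Of the 13 interferon-list genes with recovered reads, the lowest sort mean fell in sort 4 for 6, in sort 3 for 5 and in sort 1 for 2. For the 20 other Trim genes with recovered reads, it fell in sort 4 for 3, in sort 3 for 3 and in sort 1 for 6. Among all genes with a mean of at least 100, it fell in sort 4 for 19.0%, in sort 3 for 24.4% and in sort 1 for 22.8%. The Trim genes were not held to that minimum, and Trim5, Trim6 and Trim34b of the list are below it. Trim34a, Trim5 and Trim12c share 59.7%, 36.6% and 33.7% of their 50-base words with other genes, so their reads could be divided between genes by the counting. These genes were picked for display after their values had been seen.

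**Figure D5:**
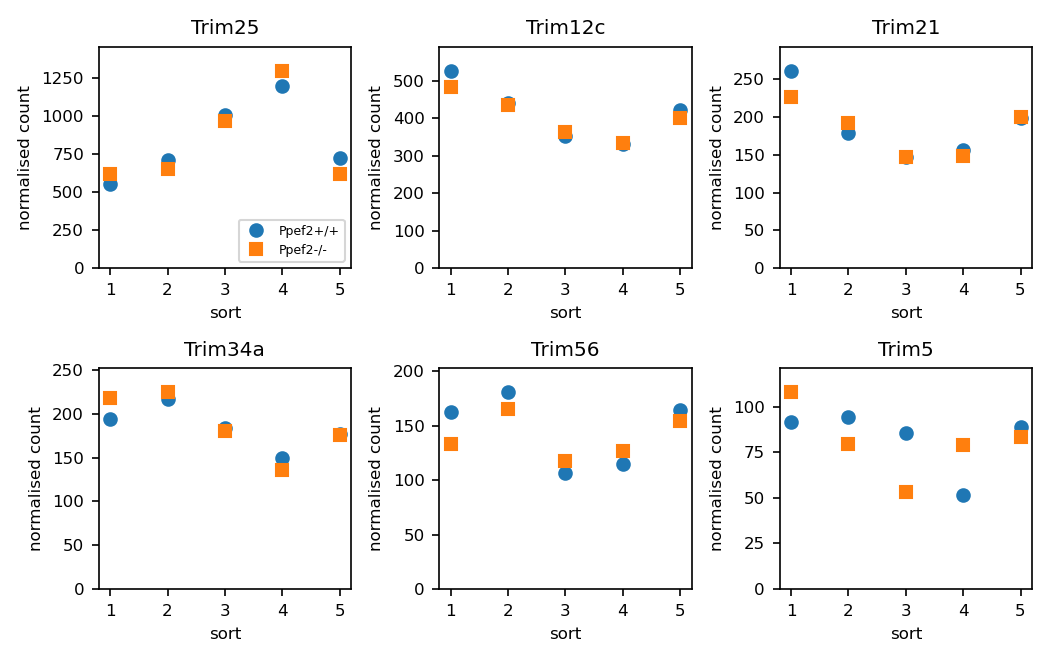
Normalised counts by sort, with the sort means put back, of 6 Trim genes of the interferon list in Ppef2+/+ (circles) and Ppef2-/- (squares) libraries. Trim25 is highest in sort 4 in both genotypes (1199 and 1298), where Trim12c is lowest (332 and 335).

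Genes that work with Trim proteins did not pass the test either. Of the Trim2 pathway, Bcl2l11, which encodes Bim, had 311 ± 71.1 normalised counts in Ppef2+/+ and 343 ± 81.9 in Ppef2-/- (SD, n = 5), a log2 fold change of 0.14 (SE 0.096, limma adjusted p = 0.995). The paper reported more Bim protein in unstimulated Ppef2-/- DCs cultured from bone marrow, which is another measure in other cells. Mapk3, a kinase described upstream of the binding of Trim2 to Bim, had a log2 fold change of -0.11 (SE 0.081). Nefl, the neurofilament substrate, was not among the genes of the table. Of 16 ubiquitin-activating and ubiquitin-conjugating enzymes, 10 were below 0 and 6 above. Of 10 partners of Trim28 in gene silencing, 5 were below and 5 above. Of 12 partners of Trim25 and Trim21 in antiviral sensing, 7 were below and 5 above. Of all genes 49.5% were below 0. In these 3 lists 0 of 38 genes had an unadjusted limma p under 0.05, beside 4.29% of all genes.

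Of 5 tripartite motif genes with other names, 3 were in the table, and Mid2 and Cmya5 were not. Among the 3, 1 (Mid1) had an unadjusted limma p under 0.05, beside 4.29% of all genes. Pml had 435 ± 54.6 normalised counts in Ppef2+/+ and 449 ± 15.5 in Ppef2-/-, and Mefv, the pyrin gene, had 452 ± 37.8 and 433 ± 30.1. Mid1, an X-linked COS-class ligase, had 33.7 ± 23.3 and 65.5 ± 44.3. It was higher in 3 sorts and lower in 2. In the deposited values, where its Ppef2+/+ library of sort 3 is at the floor, the log2 fold change was 1.65 (SE 0.60) with a limma p of 0.0131 unadjusted and 0.995 adjusted. From the recovered reads it was 0.92 (SE 0.34).

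Genes known from other cells varied between libraries. The summed level of 12 pancreatic enzyme genes ranged from 3.01 to 245 normalised counts in Ppef2+/+ and from 4.73 to 1082 in Ppef2-/-, with the high values in Ppef2-/- sorts 1 and 5 and Ppef2+/+ sort 2. In sort 5, where the difference of Trim2 was largest, the enzymes were 1074 normalised counts higher in Ppef2-/-. In sort 4, with the next largest difference of Trim2, they differed by -0.129. Marker genes of plasmacytoid DCs, all 7 of them in the table, summed to between 1177 and 1557 in Ppef2+/+ and between 1060 and 1311 in Ppef2-/-. These ranges overlap. Of the 7, 5 had a fold change below 0, beside 49.5% of all genes. Klk1, among these 5, had 13.2 normalised counts in Ppef2+/+ and 7.62 in Ppef2-/-. It passed the limit for a genotype mean through Ppef2+/+ alone, so its direction is no result. Tcf4 at -0.31 (SE 0.074) and Siglech at -0.25 (SE 0.11) had an unadjusted limma p under 0.05. That is 2 of the 7, beside 4.29% of all genes. Both were lower in 5 of 5 sorts, as were 2.92% of all genes. Adjusted by Benjamini-Hochberg, the limma p-values of Tcf4 and Siglech were 0.711 and 0.995. Bst2, Ccr9 and Spib had -0.048, 0.028 and 0.038. Ly6d had -0.82 (SE 0.44) and Klk1 -0.81 (SE 0.50). With the sort means put back, Ly6d had -0.21 (SE 0.37) and Klk1 -0.30 (SE 0.49). The cells that these reads came from were not measured, and their part in the values of the Trim genes was not tested. With sorts 3 and 4 alone, in which the enzyme genes stayed at a few counts, Trim2 had a log2 fold change of -0.75. The 4 libraries of these sorts are too few for a lack of calls to be informative.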

How the data were processed

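RNA of 10 libraries was sequenced as 50-base single-end reads from an unstranded kit. The authors counted reads per RefSeq gene on mm10, scaled the counts with DESeq2, set a floor of 1 and kept genes with a larger genotype mean of at least 10. The submitters' processing notes name TopHat2 2.0.3, Partek 6.6 and R 3.0.2, and the paper's methods name HISAT. The deposited values are a normalised count signal from which the mean of each sort had been removed. All columns were used.

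From the deposited values, whole reads were calculated back as reads times the value of 1 read, less the sort's amount. They were whole in 1 way for 9583 genes (89.0%), and the sums of 557 of 557 low genes came out, against 5 for the next best of 840 combinations. The 1140 genes with values of 1000 or more were not examined. The scripts were tested on simulated data.

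The main test was limma 3.58.1 (R 4.3.3, trend) on log2(value + 1), two-sided, with sort as a block and Benjamini-Hochberg adjustment over all genes. Fold changes are on this scale, and the added 1 makes those of low genes smaller. The removed sort means changed some of them too. With the sort means put back, Trim2 had -1.04 beside -1.16 in the main fit, and Trim34b -0.385 beside -0.52. Trim32 had -0.123 beside -0.21, and Trim68 had 0.31 in both. The block departs from the one-way model of the paper's methods because the sort means had been removed. The labels number the sorts, and after restoring the sort means, deviations of partners correlated with r from 0.0943 to 0.552. P-values and intervals of fold changes measure the spread between pools of mice, in the main fit after the sort block. Intervals of the ratios within sorts cover counting error only. Exon lengths come from GENCODE M21 and were found for 96.34% of genes. Alternatives were the fit without the block, other pseudocounts, a minimum mean, no trend, rescaling, the recovered reads with and without voom weights, and leaving out each sort.

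The members and lists were chosen with earlier results of these data known. Named were Trim2, the NHL genes, the 5 highest and 5 lowest per kb, neighbours of Trim2, members with a p under 0.05 or 1 direction in all sorts, the 3 largest fold changes each way and the Trim2 pathway, of which 1 gene is not reported here.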

Additional observations from a re-analysis of the deposited data

Results flagged for a closer look

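In 4 of 72 groups (36 Trim genes in each genotype), 1 library stood apart from the other 4 by Dixon's criterion, and chance gives about 3.6. Trim45 had 29.7 normalised counts in Ppef2-/- sort 1, where the others had between 17.8 and 19.0. Its partner in Ppef2+/+ sort 1 had 28.7. Trim39 had 150 in Ppef2-/- sort 4, beside 189 to 196 in the others. Trim5 had 51.8 in Ppef2+/+ sort 4, beside 85.7 to 94.1. Trim24 had 263.5 in Ppef2-/- sort 2, beside 227 to 237.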

How the results depend on the processing

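In 15 fits, the main one included, 0 Trim genes had an adjusted limma p under 0.05. The lowest was 0.131, without the replicate block, and 0.873 with it. Trim2 was below 0 in every fit that held it, from -1.40 (without sort 2) to -0.50 (pseudocount 10). Since Trim2 was kept through Ppef2+/+ alone, this direction is no result. A minimum mean of 20 left 33 Trim genes and removed Trim2. Its percentile by level, 1.90 as deposited, ranged from 0.9752 (without sort 5) to 2.41 (without sort 2). By its mean per kb Trim2 was the 36th of 36, and so it was under all 9 alternatives, which include the level without division by length. These ranks are of values summarised over libraries.

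The number of Trim genes with an unadjusted p under 0.05, 1 in the main fit, was 5 without the replicate block, 0 with a minimum mean of 20 and 2 without a trend (Trim2 and Trim68). Leaving out 1 sort each gave 0 to 1, with Trim68 in place of Trim2 without sort 5. With sorts 3 and 4 alone, chosen after seeing the data, it was 1, Trim35. Over all genes, 1 had an adjusted p under 0.05 in the main fit, 103 without the replicate block, 0 without a trend (539 unadjusted), 2 with the recovered reads, 2 with voom weights, and 1 to 4 when a sort was left out. Unadjusted, 462 genes became 1888 without the block.

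Trim3, at -0.0069 in the main fit, ranged from -0.0335 to 0.035 when a sort was left out, and was above 0 without sort 1 and without sort 2 (0.010). With sorts 3 and 4 alone Trim3 had 0.088, Trim32 0.26 and Trim34b 0.27, all reversed. The causes were not tested. Trim2, Trim34b, Trim6 and Trim45, with 80 to 235 reads over all libraries, are limited by depth.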
